A study of Homo sapiens with 6 samples.

Results

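The cytosolic ribosomal protein genes were followed in T24 bladder cancer cells after knockdown of UBC9. Members were chosen by symbol: RPL or RPS followed by digits, with an optional suffix such as A or L, together with RPLP0, RPLP1, RPLP2 and RPSA. RPS6K kinases, pseudogenes, hyphenated readthrough genes and the RPS4 genes of the sex chromosomes were left out. The rule found 84 members among 58174 genes, 53 of the large subunit and 31 of the small subunit. The rule uses symbols and no measured value, although it was set with earlier results of these data known.

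T24 is an established human bladder cancer line, and RNA-seq of polyA RNA compared 3 samples of cells carrying a scrambled control shRNA (shRNA-NC) with 3 samples carrying an shRNA against UBC9 (shRNA-UBC9). Both groups were infected with lentivirus and selected with puromycin to give stable cells, so the control shares the vector and the selection. A single shRNA sequence against UBC9 was given for the knockdown. Nothing in the labels said that replicates came from separate infections, so p-values measure the spread between these samples, which may be technical. UBC9 is the enzyme that passes the small protein SUMO to its targets. The epithelial keratin KRT7 stood at 627, 510 and 530 RPKM (read density per length of gene, relative to all mapped reads of that library) in shRNA-NC and at 216, 273 and 286 RPKM in shRNA-UBC9, and KRT8, KRT18 and KRT19 were likewise lower in every knockdown sample. Their part in the ribosomal protein results was not tested. The mesenchymal genes VIM (286 to 496 RPKM) and FN1 (292 to 838 RPKM) were high in all samples and EPCAM was low (0.412 to 2.51 RPKM), whereas the urothelial differentiation marker KRT20 was listed at 0 in all 6 and the uroplakins UPK2, UPK1B and UPK3A did not exceed 0.125 RPKM. Leukocyte markers stayed at or below 0.786 RPKM. Read totals were not used. Relative depth was taken as the most common ratio of shRNA-NC replicate 1 to each sample over genes with low values in both. It placed the depths of the 6 samples between 0.945 and 1.21 times that of shRNA-NC replicate 1. In the other samples this ratio held for only 21.2% to 23% of such genes.

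A cytosolic ribosome joins a small subunit, which reads the mRNA, and a large subunit, which forms peptide bonds, and each is built from ribosomal RNA and a fixed set of proteins. Most of the proteins are needed in equal numbers, and their mRNAs are among the most abundant in dividing cells. Most of these mRNAs begin with a C followed by an unbroken run of pyrimidines, the terminal oligopyrimidine motif, through which growth signalling adjusts their translation and stability.

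The starts of 10 members are shown, since this run is the sequence feature that members share beyond their symbols. Each line gives 15 bases before and 15 bases from the RefSeq-annotated start in GRCh38.p14, read along the gene's own strand, with capitals marking the unbroken run of C and T that begins at the start. The first 4 are among the 10 members with the largest falls, and the others are 3 genes, each followed by its paralog.
RPL13A, chr19:49487593-49487622, plus strand: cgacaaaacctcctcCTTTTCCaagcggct
RPS3A, chr4:151099613-151099642, plus strand: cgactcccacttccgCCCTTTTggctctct
RPS24, chr10:78033848-78033877, plus strand: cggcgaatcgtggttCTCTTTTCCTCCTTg
RPS6, chr9:19380222-19380251, minus strand: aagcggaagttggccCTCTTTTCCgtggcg
RPL26, chr17:8383179-8383208, minus strand: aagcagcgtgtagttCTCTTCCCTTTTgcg
RPL26L1, chr5:172958714-172958743, plus strand: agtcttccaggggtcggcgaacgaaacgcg
RPL36A, chrX:101390996-101391025, plus strand: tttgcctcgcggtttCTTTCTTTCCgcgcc
RPL36AL, chr14:49620612-49620641, minus strand: ctgtttcttccctttCCTgttaggcgagag
RPS27, chr1:153990747-153990776, plus strand: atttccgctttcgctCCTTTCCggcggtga
RPS27L, chr15:63157463-63157492, minus strand: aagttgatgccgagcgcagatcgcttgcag

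The run is 7 bases long in RPL13A and 14 in RPS24, and 12 in RPL26 against 0 in its paralog RPL26L1. RPL36AL has a run of 3 bases and RPS27L of 0. The starts shown do not stand for all members. The paralog RPL22L1, not shown, begins with C and has a run of 6. Among the 10 largest falls, RPL3, RPL13 and RPL10A, also not shown, have runs of only 4, 2 and 0. RefSeq promoters were matched for 67 of the 84 members, and 43 of them (64.2%) began with C and carried a run of at least 5 pyrimidines, against 4.04% of all 27305 symbols in the table. The motif CCGGAA, the core bound by ETS factors, searched on both strands from 250 bases before to 50 bases after the start, was present in 53.7% of member promoters and 17.6% of all promoters. CACGTG, the E-box bound by MYC among others, was present in 5.97% and 7.43%. These matches describe letters in the window and not sites in use.

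Most cytosolic ribosomal protein genes were lower in shRNA-UBC9 by a modest amount. Of the 84 members, 82 were tested, that is they reached 0.5 RPKM in at least 3 samples. Of these 82, 44 (53.7%) were lower in shRNA-UBC9 at a limma adjusted p below 0.05, whereas 18.0% of all 12428 tested genes were called lower. No member was called higher, against 18.8% of all tested genes, and none was higher even at an unadjusted p below 0.05. The median log2 fold change of the tested members was -0.29, which is -18% on the linear scale, and the median of all tested genes was 0.00. No member passed a log2 fold change of 1, a size that 2.70% of all tested genes passed downwards with an adjusted p below 0.05. RPKM is relative to the mapped reads of a sample, and fewer expressing cells and less RNA per cell cannot be told apart.

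The count of calls depended on single samples. Without shRNA-NC replicate 3 it was 21 (25.6% of members, against 11.3% of all tested genes), and without shRNA-UBC9 replicate 2 it was 26 (31.7%, against 12.7%). With no filter on low values 25 members were called lower, against 8.07% of all genes. Under every alternative run, 19 of the 44 kept their call, among them RPL13A, RPS3A, RPL7, RPL7A, RPL3, RPS24, RPL13, RPL38, RPL10A and RPS6. In the control group, 56 of the 82 members were highest in replicate 3.

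**Figure D1:**
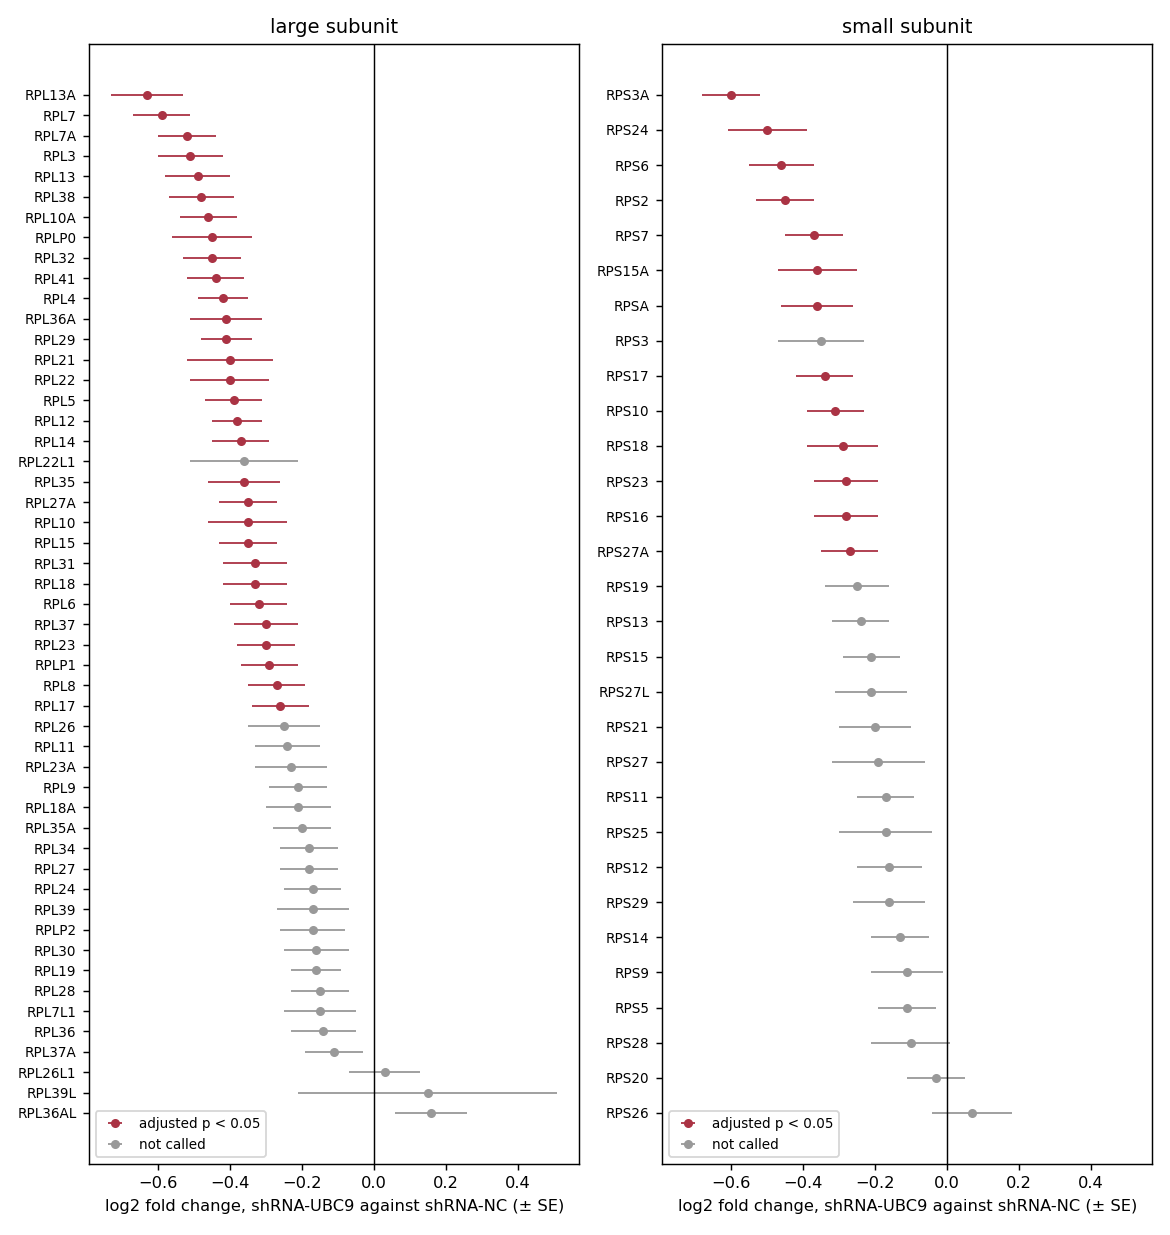
Log2 fold change of 81 of the 82 tested members (horizontal axis, shRNA-UBC9 against shRNA-NC, bars ± SE, n = 3 per group), with the large subunit on the left and the small subunit on the right. Red points are the 43 of them called lower and grey points the others, and 77 of the 81 points lie below 0.

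Every shRNA-UBC9 sample lay below every shRNA-NC sample for 62 of the 82 members, against 25.4% of all tested genes, and for no member did the groups separate in the other direction. The median SD within a group was 0.09 on the log2 scale for members, 0.13 for other genes with a mean of at least 50 RPKM and 0.15 for all tested genes. Among the 664 other genes with a mean of at least 50 RPKM, a comparison chosen after seeing the data, 24.5% were called lower and the median log2 fold change was -0.02.

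Taking each gene against its own shRNA-NC mean, the medians over members in the control samples were -0.03, -0.05 and 0.08 on the log2 scale. In each of the 3 shRNA-UBC9 samples the median was -0.29. The knockdown medians were alike, and the medians of the control samples were spread more widely.

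**Figure D2:**
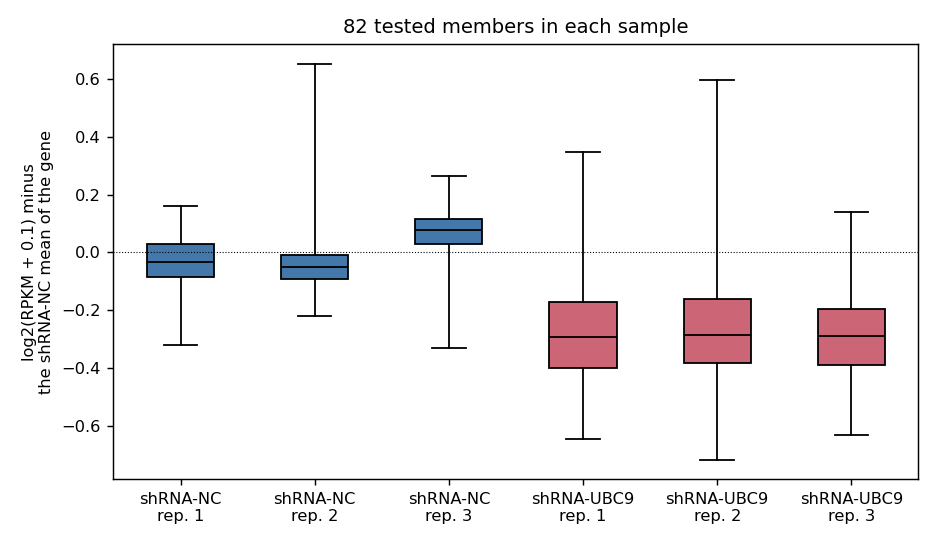
Difference of each tested member from its own shRNA-NC mean (vertical axis, log2(RPKM + 0.1)) in each of the 6 samples. Boxes show quartiles and median and whiskers reach the lowest and highest of 82 members, and the 3 shRNA-UBC9 medians all lie at -0.29.

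Members together made up 8.93%, 8.71% and 9.54% of the summed RPKM in the shRNA-NC samples and 7.24%, 7.00% and 7.11% in the shRNA-UBC9 samples. The groups did not overlap, with means of 9.06% ± 0.432 and 7.12% ± 0.122 (SD, n = 3). The large subunit went from 5.42% ± 0.22 to 4.19% ± 0.0713 and the small subunit from 3.64% ± 0.212 to 2.93% ± 0.0544 (SD, n = 3). Transcripts of the mitochondrial genome (all symbols that start with MT-), which take no part in the cytosolic ribosome, also made up a smaller share. It was 8.53% ± 0.243 in shRNA-NC and 7.02% ± 0.176 in shRNA-UBC9 (SD, n = 3). The part of RNA composition in these shares was not tested.

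**Figure D3:**
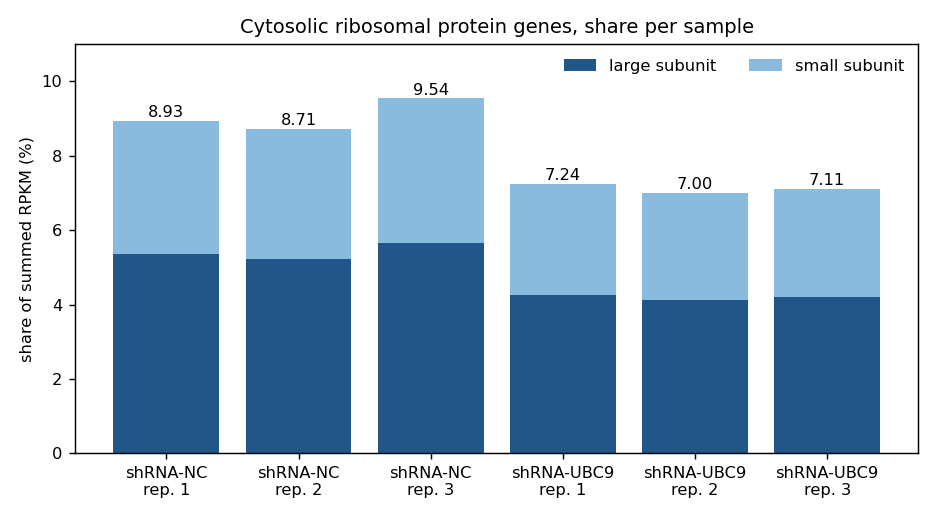
Share of the summed RPKM (vertical axis, %) taken by members of the large subunit (dark) and the small subunit (light) in each sample, with the total printed above each bar. The shRNA-UBC9 totals lie between 7.00% and 7.24%, below the lowest shRNA-NC total of 8.71%.

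Lower calls were found in both subunits. In the large subunit, 30 of 51 tested members (58.8%) were called lower, against 18.0% of all tested genes, with a median log2 fold change of -0.32. In the small subunit, 14 of 31 (45.2%) were called lower, with a median of -0.25. The difference between the subunits was not tested.

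The member that fell most was RPL13A, a large-subunit protein that can also leave the ribosome to repress translation of inflammatory mRNAs. It stood at 746, 621 and 700 RPKM in shRNA-NC and at 439, 418 and 481 RPKM in shRNA-UBC9. The groups were far apart, and RPL13A fell by 0.63 on the log2 scale (SE 0.10, limma adjusted p = 0.0022). RPS3A, a small-subunit protein close to the path of the mRNA, measured 401, 410 and 445 RPKM in the controls and 284, 266 and 277 RPKM after knockdown. All knockdown samples were below all controls, and the log2 fold change was -0.60 (SE 0.08, limma adjusted p = 0.00103). RPL7, which lies near the smallest ribosomal RNA of the large subunit, was at 364, 367 and 385 RPKM and then at 246, 241 and 257 RPKM. Its samples agreed closely within each group, and RPL7 fell by 0.59 on the log2 scale (SE 0.08, limma adjusted p = 0.000893).

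Other large-subunit members fell by similar amounts. RPL7A had a log2 fold change of -0.52. RPL3, whose protein reaches towards the site of peptide bond formation, had -0.51 and went from 330 RPKM ± 19.5 to 232 RPKM ± 17.7 (SD, n = 3). RPL13 had -0.49, RPL38, known for its effect on translation of homeobox mRNAs in the mouse, -0.48, and RPL10A -0.46. Their limma adjusted p-values ran from 0.00217 to 0.00506.

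In the small subunit, RPS24 measured 168, 205 and 210 RPKM in shRNA-NC and 142, 145 and 125 RPKM after knockdown, for a log2 fold change of -0.50 (SE 0.11, limma adjusted p = 0.00957). RPS24 is among the genes mutated in Diamond-Blackfan anaemia. RPS6, the protein phosphorylated by the S6 kinases downstream of mTOR, was at 254, 280 and 302 RPKM and then at 212, 204 and 192 RPKM, and fell by 0.46 on the log2 scale (SE 0.09, limma adjusted p = 0.0061). No knockdown sample reached the lowest control for either gene.

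At the other end of the called members, the 10 smallest falls lay between -0.31 (RPS10) and -0.26 (RPL17) on the log2 scale. They were RPS10, RPL23, RPL37, RPS18, RPLP1, RPS23, RPS16, RPS27A, RPL8 and RPL17, with limma adjusted p-values from 0.0199 (RPL23) to 0.0475 (RPS16). RPS27A, which is made as a fusion with ubiquitin, went from 160 RPKM ± 8.25 to 132 RPKM ± 3.12 (SD, n = 3). RPL17 shares exons with the readthrough gene RPL17-C18orf32, which measured 3.84 RPKM in shRNA-UBC9 and 5.50 RPKM in shRNA-NC against 250 and 299 RPKM for RPL17.

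The acidic stalk of the large subunit, which recruits elongation factors, is formed by the products of RPLP0, RPLP1 and RPLP2. RPLP0 measured 548, 446 and 517 RPKM in shRNA-NC and 344, 347 and 413 RPKM after knockdown, for a log2 fold change of -0.45 (SE 0.11, limma adjusted p = 0.0146). RPLP1 fell by 0.29 on the log2 scale (limma adjusted p = 0.0224). RPLP2 was at 371, 333 and 389 RPKM and then at 313, 336 and 318 RPKM, so its groups overlapped (log2 fold change -0.17, limma adjusted p = 0.159). RPLP0 lost its call with no filter (limma adjusted p = 0.0816, log2 fold change -0.45) and without shRNA-NC replicate 1 (0.0579, -0.39), shRNA-NC replicate 3 (0.0536, -0.43) or shRNA-UBC9 replicate 2 (0.0541, -0.41).

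RPL5 and RPL11 together carry the smallest ribosomal RNA and bind MDM2 when ribosome assembly is disturbed. RPL5 went from 351, 328 and 353 RPKM to 264, 255 and 271 RPKM and fell by 0.39 on the log2 scale (SE 0.08, limma adjusted p = 0.00607). RPL11 went from 372, 371 and 431 RPKM to 335, 345 and 311 RPKM. Its groups did not overlap, but its log2 fold change of -0.24 was not called (SE 0.09, limma adjusted p = 0.0722). It was called under quantile normalization (0.0235), median scaling (0.0379) and scaling to the sum of other genes (0.0372), and under no other setting. The limma adjusted p rose to 0.24 with no filter and 0.15 with a replicate block. Without shRNA-NC replicate 3 it was 0.231, at a log2 fold change of -0.17. The difference between RPL5 and RPL11 was not tested.

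Among other well-known small-subunit members, RPSA, also described as a laminin receptor precursor, fell by 0.36 on the log2 scale (limma adjusted p = 0.0204). RPS3, which lies at the mRNA entry and has a described role in DNA repair, had a log2 fold change of -0.35 with overlapping groups (limma adjusted p = 0.0513). RPS19, the gene most often mutated in Diamond-Blackfan anaemia, had -0.25 with groups that did not overlap (limma adjusted p = 0.0653). Both passed the threshold when values were rescaled to the sum of the other genes, where 21.9% of all tested genes were called lower. Neither was called with no filter, no intensity trend or a replicate block, nor without shRNA-NC replicate 3 or shRNA-UBC9 replicate 2.

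Levels per gene length spanned a wide range. The 5 highest means over all samples were those of RPS2 (824 RPKM), RPS12 (743 RPKM), RPL41 (731 RPKM), RPL7A (622 RPKM) and RPS18 (593 RPKM). This order pools the groups: by mean, RPL41 was above RPS12 in shRNA-NC, and in shRNA-UBC9 RPS12 was above RPS2 and RPS18 above RPL7A. The values of RPS12 and RPS2 overlapped in shRNA-UBC9 (means 701 and 697 RPKM). The mean of RPL13A stood above that of RPS18 in shRNA-NC (689 and 653 RPKM), with overlapping values. In shRNA-UBC9 every RPS12 value (684 to 732 RPKM) lay above every RPL41 value (616 to 623 RPKM), whereas in shRNA-NC their values overlapped. The values of RPL7A and RPS18 overlapped within both groups, although RPL7A was the higher in each shRNA-NC sample. RPS2 went from 952 RPKM ± 14.9 to 697 RPKM ± 44.7 and RPL41, the shortest ribosomal protein, from 843 RPKM ± 46.9 to 619 RPKM ± 3.74 (SD, n = 3), log2 fold changes of -0.45 and -0.44 that were both called. RPS12 had a log2 fold change of -0.16 that was not called (limma adjusted p = 0.196). The 5 lowest means among tested members were those of RPS29 (38.0 RPKM), RPL7L1 (24.1 RPKM), RPL22L1 (8.21 RPKM), RPS27L (4.21 RPKM) and RPL39L (0.740 RPKM), and none of these was called. The other members stood between 39.0 and 567 RPKM. Across the 82 tested members, Spearman's rho between mean level and log2 fold change was -0.32, a description over genes that share the same 6 libraries. The 36 members above 200 RPKM had a median log2 fold change of -0.35 and the other 46 had -0.24.

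Of the 2 members that were not tested, RPL10L, a testis gene, was listed at 0 in every sample, and RPL3L, a gene of heart and skeletal muscle, did not exceed 0.0720 RPKM. A log2 fold change above 0 was found for 4 tested members, named after their values were seen. They were RPL26L1 (0.03), RPS26 (0.07), RPL39L (0.15) and RPL36AL (0.16), and none was called. RPL26L1 turned below 0 under median scaling and under scaling to the sum of other genes. RPL39L and RPS26 lay within rounding of 0 under quantile normalization. RPS20, whose protein is marked with ubiquitin when ribosomes collide, had -0.03 with a limma adjusted p of 0.775, and 0.01 without shRNA-NC replicate 3.

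Members with a suffix L, AL or L1 are paralogs of another member, and several are known for expression limited to particular tissues. None of the 6 tested paralogs was called lower, and 1 was lower at an unadjusted p below 0.05, while 44 of the 76 other members were called lower. With 6 genes and 18.0% of all tested genes called lower, a count of 0 is near the background, and the difference from the other members was not tested. Ratios within a pair were compared for 6 pairs. With 3 samples against 3 the smallest two-sided p of the exact permutation test is 0.1, so no pair could pass 0.05.

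The ratio of RPL36AL to RPL36A moved most. RPL36AL measured 161, 186 and 183 RPKM in shRNA-NC and 193, 217 and 180 RPKM in shRNA-UBC9, with overlapping groups. RPL36A measured 183, 210 and 226 RPKM and then 162, 158 and 145 RPKM and fell by 0.41 on the log2 scale (SE 0.10, limma adjusted p = 0.0147). The log2 ratio therefore went from -0.22 ± 0.07 to 0.34 ± 0.10 (SD, n = 3), a difference of 0.56 with groups apart (exact permutation p = 0.1, adjusted over the 6 pairs p = 0.3). The coding sequences are 89.9% identical and the handling of reads that map to both is not stated, so the split between them is uncertain.

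The log2 ratio of RPL7L1 to RPL7 went from -3.87 ± 0.19 to -3.44 ± 0.08 (SD, n = 3), also with groups apart (exact permutation p = 0.1, adjusted p = 0.3). RPL7L1 itself had a log2 fold change of -0.15 that was not called. The ratio of RPL26L1 to RPL26 differed by 0.28 with overlapping groups (exact permutation p = 0.2). For RPL39L to RPL39 the difference was 0.32, with RPL39L near the lower limit of the filter. RPL22L1 to RPL22 differed by 0.04 and RPS27L to RPS27 by -0.02, both less than the SD within shRNA-NC of 0.31 and 0.17.

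**Figure D4:**
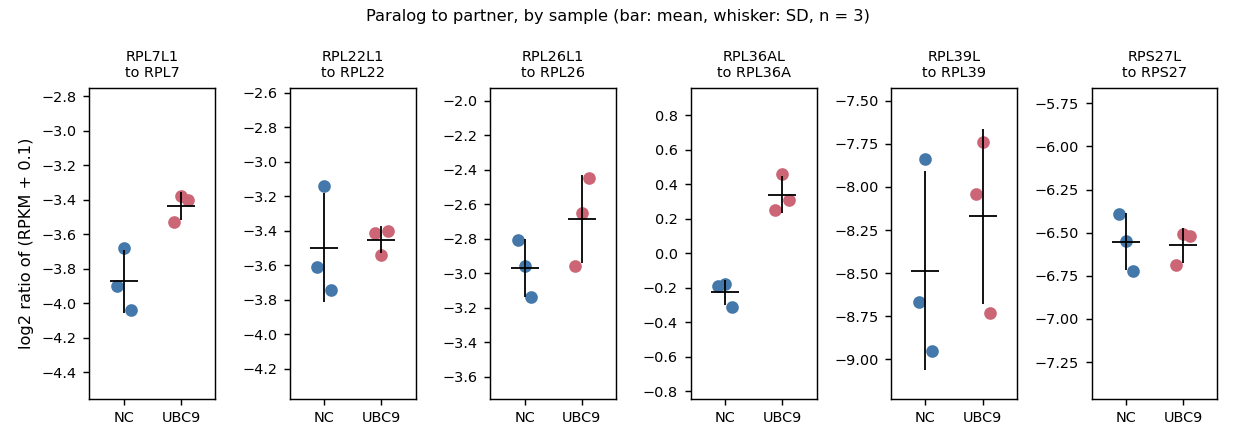
Log2 ratio of (RPKM + 0.1) of each paralog to its partner (vertical axis, each panel spanning the same range of log2 units) in the 3 shRNA-NC (blue) and 3 shRNA-UBC9 (red) samples. Horizontal bars are means and whiskers SD, and the groups are apart for RPL7L1 to RPL7 and for RPL36AL to RPL36A.

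Processed copies could take reads from members. Pseudogenes of members summed to between 231 and 342 RPKM per sample, or 1.38% to 1.55% of the members' own sum, and nearly all of it was RPL9P9. RPL9P9 measured 276, 268 and 325 RPKM in shRNA-NC and 220, 232 and 213 RPKM in shRNA-UBC9, while RPL9 itself measured 67.6, 65.2 and 74.4 RPKM and then 61.6, 58.7 and 58.4 RPKM. RPL9 alone was not called (log2 fold change -0.21, limma adjusted p = 0.0785), and the row of RPL9P9 was (-0.38, limma adjusted p = 0.0163), so RPL9 is uncertain. Adding pseudogene values to their parents gave 45 members called lower in place of 44.

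Members are spread over the genome, on 21 chromosomes, with 12 on chromosome 19 and 9 on chromosome 3. A further shared property is the small nucleolar RNA (snoRNA), a guide for ribosomal RNA modification that is often cut from introns of these genes. By the GENCODE annotation, 28 members contain a snoRNA gene on their own strand. Among them are RPL4 with 5, and RPL13A, RPL7A and RPL23A with 4 each. RPL23A was not called (log2 fold change -0.23). Of these 28, 18 (64.3%) were called lower, against 18.0% of all tested genes, with a median log2 fold change of -0.35. Of the 54 other tested members, 26 (48.1%) were called lower, with a median of -0.26. By start sequence, the 43 members with a C start and a run of at least 5 had 24 (55.8%) called lower and a median of -0.31. The 23 tested members without it had 11 (47.8%) called lower and a median of -0.24. Longer runs did not go with larger falls. With a run of at least 8, 11 of 24 (45.8%) were called lower with a median of -0.27. With at least 10, 6 of 15 (40%) were called lower with a median of -0.25. These differences between members were not tested. Among genes that are not members, the 462 with such a start had a median of -0.02, with 97 (21%) called lower and 76 (16.5%) higher. The 8652 without it had a median of 0.00, with 18.3% called lower and 18.6% higher.

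Genes outside the symbol rule that also encode ribosomal proteins gave mixed values. RACK1, a scaffold on the small subunit, fell by 0.43 on the log2 scale (limma adjusted p = 0.0251). It lost this call with no filter, with a replicate block, and without shRNA-NC replicate 1 or 3 or shRNA-UBC9 replicate 1 or 2. The log2 fold changes in those fits were -0.44 to -0.34. FAU, which encodes a ribosomal protein fused to a ubiquitin-like sequence, had 0.01 and was not called. FAU was at 161, 158 and 163 RPKM in shRNA-NC and 157, 158 and 169 RPKM in shRNA-UBC9, with overlapping groups.

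Of the list of elongation and termination factors, 7 of 14 genes (50%) were called lower, against 18.0% of all tested genes, and 1 higher. The median log2 fold change was -0.22, and 4 genes were called lower without shRNA-NC replicate 3 and with no filter. The list also holds EEF2K, a kinase that inhibits elongation, the nascent-chain complex genes NACA and BTF3, and TPT1. EEF2K, NACA and BTF3 were 3 of the 7, and the other 4 were EEF1A1, EEF1B2, EEF1D and EEF1G. EEF1A1, which delivers aminoacyl-tRNA, went from 1783 RPKM ± 62.7 to 1187 RPKM ± 60.3 (SD, n = 3). Its log2 fold change was -0.59 (limma adjusted p = 0.00128), and it lost its call with no filter (limma adjusted p = 0.11). EEF1G fell by 0.51 on the log2 scale (limma adjusted p = 0.00358). EIF5A2 rose by 1.06 (limma adjusted p = 0.00156) from a low level. EEF2, which moves the ribosome along the mRNA, had -0.04 and was not called. A list of noncoding snoRNA hosts held GAS5, ZFAS1, EPB41L4A-AS1 and the SNHG symbols, and no protein-coding hosts. Of its tested genes, 9 of 23 (39.1%) were called lower and 0 higher (also 0 at an unadjusted p below 0.05). Their median was -0.27. The smallest adjusted p-values were those of ZFAS1 (-0.70), GAS5 (-0.49) and SNHG10 (-0.66), which are noncoding.

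Initiation factors had 7 of 39 called lower (17.9%, against 18.0% of all tested genes) and 2 higher, with a median of -0.02. Without shRNA-NC replicate 3, 4 were called lower, when 11.3% of all tested genes were. EIF3L (-0.52) and the poly(A)-binding protein gene PABPC1 (-0.48) fell, and EIF1, which helps choose the start codon, rose by 0.71 (limma adjusted p = 0.00154). Ribosome assembly factors had 5 of 64 called lower (7.81%) and 4 higher (6.25%), below the shares of all tested genes, with a median of -0.01. The lower calls numbered 0 without shRNA-NC replicate 1 and with no filter, and 1 without shRNA-NC replicate 2 or 3. They numbered 2 without shRNA-UBC9 replicate 1 and 3 without shRNA-UBC9 replicate 2. In these fits 8.07% to 16.1% of all tested genes were called lower. The assembly factors with the smallest adjusted p were higher: TEX10 (0.55), NMD3 (0.48) and RIOK2 (0.48). The RNA polymerase I machinery, which makes ribosomal RNA, had 1 of 15 (6.67%) called lower (POLR1E, -0.60), with a median of -0.02.

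Mitochondrial ribosomal proteins had 10 of 78 called lower (12.8%, against 18.0% of all tested genes) and 2 higher, with a median of -0.06. The lower calls numbered 4 without shRNA-NC replicate 3, 5 without shRNA-NC replicate 2, and 19 when values were scaled to the sum of other genes. In the same fits 11.3%, 14.5% and 21.9% of all tested genes were called lower. MRPS10 fell by 1.41 (limma adjusted p = 0.000289), more than any member of the cytosolic set, and MRPL13 and MRPL10 by 0.54 and 0.62. Of 20 regulators of ribosomal protein mRNA translation, 3 (15%) were called lower and 1 (5%) higher. The mTOR inhibitors TSC1 (-0.55) and DEPTOR (-2.00) and the kinase gene RPS6KB1 (-0.48) were lower, while MTOR (-0.17), LARP1 (0.12), which binds the pyrimidine run, and MYC (0.15) were not called. DEPTOR stood at 0.920, 2.10 and 1.42 RPKM in shRNA-NC and 0.476, 0.206 and 0.203 RPKM in shRNA-UBC9, which is near the filter.

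**Figure D5:**
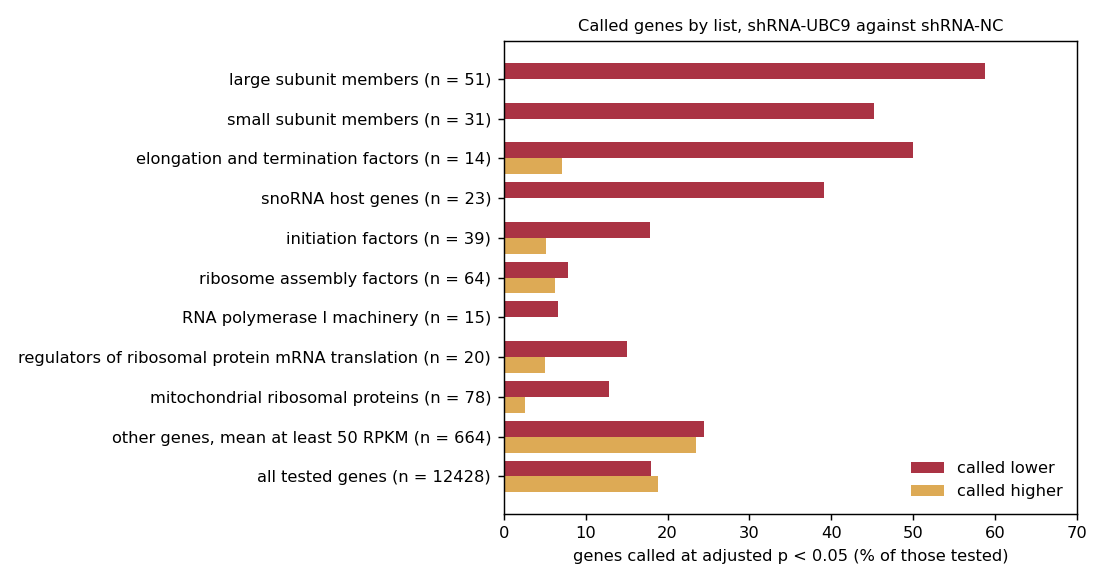
Share of tested genes called lower (red) and higher (yellow) at an adjusted p below 0.05 (horizontal axis, %) for members by subunit, for other lists (the elongation list also holds EEF2K, NACA, BTF3 and TPT1) and for all tested genes, with the number tested in brackets. Of the large-subunit members 58.8% were called lower and of the small-subunit members 45.2%, against 18.0% of all tested genes.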

How the data were processed

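RNA-seq of T24 cells was measured in 3 shRNA-NC and 3 shRNA-UBC9 samples. The authors deposited RPKM values, 1 file per sample, made with the CLC Biomedical Genomics Workbench on GRCh38 without changes to its mapping defaults. The annotation release, strand setting, and handling of multiply mapped reads are not given in the sources used here. RPKM corrects for gene length and mapped reads, not for RNA composition. Read counts were not used here, so no count model was fitted and total depth is unknown.

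Values were taken to log2(RPKM + 0.1), so changes of low genes are understated. The filter was 0.5 RPKM in at least 3 of 6 samples, and groups were compared over 12428 genes with limma 3.58.1 (eBayes with an intensity trend, R 4.3.3) and Benjamini-Hochberg adjustment, with calls at an adjusted p below 0.05. The script was tested on simulated data. Paralog ratios were compared by exact two-sided permutation. No 2 samples held identical values. Members, lists and tests were chosen with earlier results of these data known. Named members were the 10 most and 10 least lowered among those called, the 5 highest and 5 lowest in level, untested members, paralog pairs, a list of well-known members, and up to 3 called genes of each other list. FAU, EEF2, MTOR, LARP1, MYC, RPL9, RPL9P9, RPS20 and RPS26 were named after their values were seen. Starts came from RefSeq, GRCh38.p14, and snoRNA genes from GENCODE version 44, which may differ from the authors' annotation. Starts were matched for 73.9% of tested genes, so comparisons of starts over genes that are not members cover part of the genes tested. The values of a few genes, the targeted gene included, are not reported here, although they entered every fit and count. Alternatives were other pseudocounts, filters, scalings, no trend, a replicate block, leaving out each sample, adding pseudogenes, and leaving out suffixed members.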

Additional observations from a re-analysis of the deposited data

How the results depend on the processing

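The median log2 fold change of members stayed below 0 under every alternative run, between -0.34 (scaled to the sum of other genes, with all tested genes at -0.05) and -0.24 (without shRNA-NC replicate 3). Leaving out 1 sample at a time gave -0.31 to -0.24 for this median and 21 to 42 members called lower. Of the genes in the other lists together, 27 to 49 were then called in either direction, against 53 with all samples. These lists include the mitochondrial ribosomal proteins and the noncoding snoRNA hosts. With all samples, 18.0% of all tested genes were called lower and 18.8% higher. The difference in summed share was -2.12 to -1.70 percentage points with 1 sample left out, against -1.95. Removing the 100 other genes of highest mean RPKM from the sum moved that difference to -2.43. The count of 44 members called lower became 25 with no filter. No alternative called a member higher or past a log2 fold change of 1. The replicate numbers shared by the groups did not pair the samples: same-numbered deviations correlated at -0.367, 0.073 and -0.170, so the numbers are only names, and a replicate block, which costs residual degrees of freedom, gave 28 members called lower. Of the named members under the planned settings, signs changed for members that were not called. RPL26L1 was -0.01 under median scaling, -0.03 when scaled to the sum of other genes, and -0.03 to 0.13 when single samples were left out (below 0 without shRNA-UBC9 replicate 3 or 2). RPL39L was 0.00 under quantile normalization and -0.08 to 0.47 when single samples were left out (below 0 without shRNA-NC replicate 1 or 3 or shRNA-UBC9 replicate 2). RPS26 was 0.00 under quantile normalization. RPS20 lay between -0.06 and 0.01 when single samples were left out. Causes were not tested. With RPKM alone, precision at low levels cannot be stated.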
